A study of Drosophila melanogaster with 8 samples.

Results

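Glutamate is the excitatory transmitter of the Drosophila neuromuscular junction and is also released by neurons of the fly brain, where it acts on cation channels and, through the chloride channel GluClalpha, inhibits cells as well. Neurons load it into vesicles, glia take much of it up from the extracellular space, and glutamine synthetase turns it into glutamine, so the cycle runs across different cell types. The 10 genes described here cover these steps. They are the vesicular transporter VGlut, the plasma membrane transporters Eaat1 and Eaat2, the cystine/glutamate exchanger subunit gb, the glutamine synthetases Gs1 and Gs2, the NMDA receptor subunits Nmdar1 and Nmdar2, and the non-NMDA receptor subunits GluRIA and GluRIB. They were picked by name out of 16727 genes in the deposited table, all 10 were found there, and all 10 had enough counts to be tested.

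Heads of female flies of the genotype (G4C2)36; elavGS were sequenced in 8 libraries of 15 heads each. Induced flies received 200 µM RU486 (mifepristone) for 5 d (n = 4 libraries), and uninduced flies received the ethanol vehicle for the same time (n = 4), and flies of both groups were 7 d old. All flies carried the driver elavGS, a GeneSwitch driver that is active in neurons once RU486 is fed, and a transgene of 36 G4C2 repeats of the kind expanded in C9orf72 ALS/FTD. RU486-fed flies lacking the repeat were not among the libraries, so an effect of the drug and an effect of the repeat cannot be told apart. Whole heads were used, so in these bulk samples fewer cells of a type and less RNA per cell cannot be told apart either. Stocks had been backcrossed to a w1118 or v-w1118 strain. The labels do not say how the flies were divided into cultures, so p-values measure the spread between these libraries.

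Library totals ranged from 13421396 to 14962813 counts in induced and from 13247282 to 14192723 counts in uninduced heads. Of 9905 genes tested, 36.5% passed an adjusted p of 0.05 (quasi-likelihood test of edgeR, Benjamini-Hochberg), 17.7% being higher and 18.8% lower in induced heads. Levels are given as CPM, the count of a gene relative to its library's total after TMM scaling, a method that corrects totals for differences in composition. The fat body markers were lower in induced heads in 7 of 7 tested genes of 8 listed, and their summed level was 89980.3 to 114809.1 CPM in induced against 140846.4 to 152278.6 CPM in uninduced heads. Neuronal markers (3 of 10 higher, 1 lower) summed to 4957.1 to 5292.0 CPM in induced and 4042.8 to 4531.6 CPM in uninduced heads, and glial markers (3 of 8 higher, 3 lower) to 663.2 to 769.7 CPM in induced and 703.1 to 776.4 CPM in uninduced heads. No listed marker was at 0 in every library. The neuronal marker elav had 120.0 ± 2.34 CPM in induced and 105.0 ± 1.54 CPM in uninduced heads, and the glial marker repo 32.8 ± 1.91 CPM in induced and 30.0 ± 3.89 CPM in uninduced heads (SD, n = 4 each).

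The largest changes among the 10 genes were those of a plasma membrane transporter, Eaat1, and a glutamine synthetase, Gs1. Eaat1 and Gs1 fell to 54.5% and 56.3% of their uninduced levels, VGlut fell by a smaller amount, and the other 7 genes, among them all 4 receptor subunits, did not pass the test. The count was thus 3 of 10 lower and 0 of 10 higher, beside 18.8% and 17.7% of all genes tested. At an unadjusted p under 0.05 edgeR also called 0 of the 10 higher, as did DESeq2 after adjustment. With 10 genes, these counts were not read as a property of the group. Eaat1 and Gs1 ranked 40th and 48th of the 9905 genes by adjusted p, and their log2 fold changes lay at the 1.5 and 1.8 percentiles of all genes tested. Both were among the 4.04% of genes that were lower at an adjusted p under 0.05 with a log2 fold change under -0.58, the size threshold of the study's enrichment analysis, and none of the 10 was among the 4.01% that were higher past 0.58. In all, 3 of the 10 genes had groups that did not overlap, all lower, beside 17.9% of all genes without overlap and lower and 18.1% without overlap and higher. The median log2 fold change of the 10 genes was 0.07, against 0.00 over all genes tested.

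**Figure D1:**
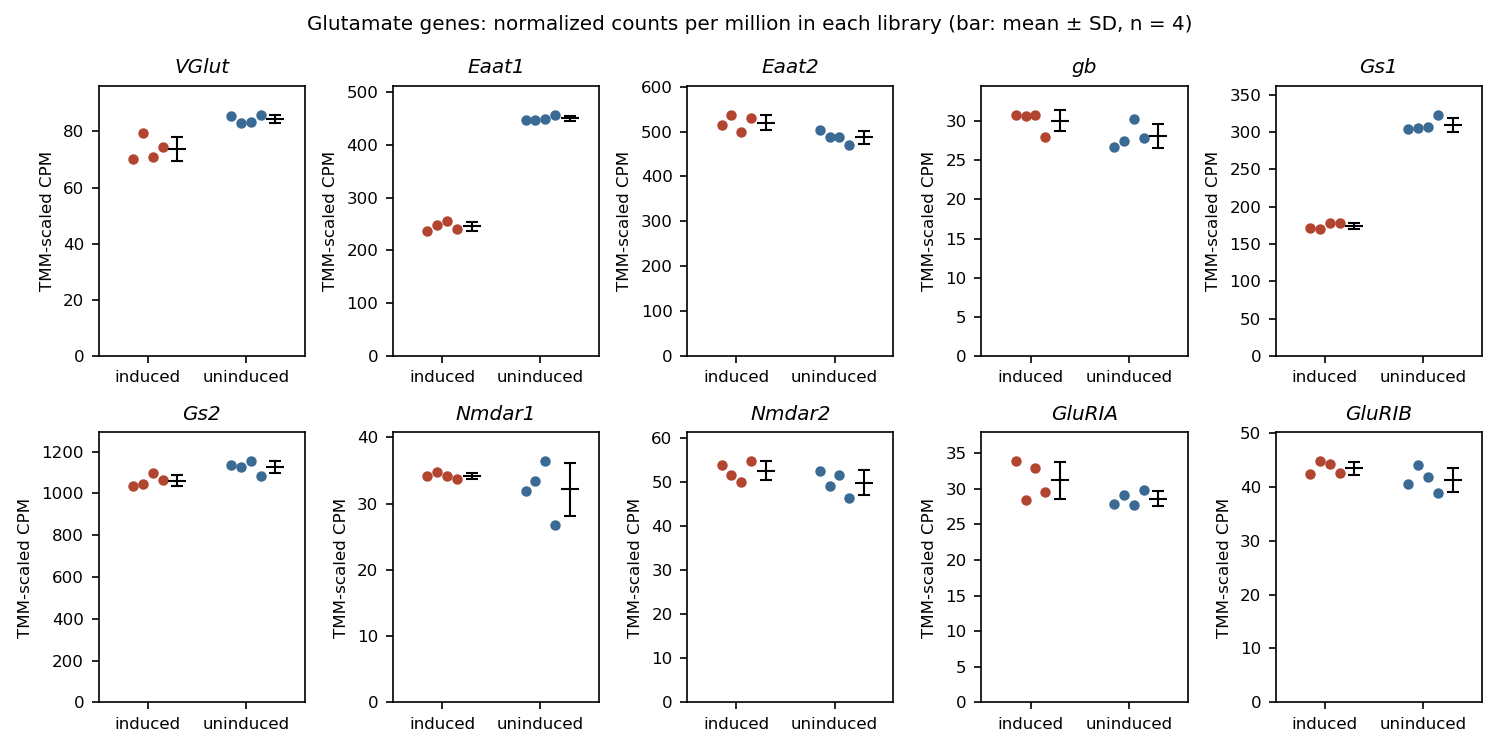
TMM-scaled CPM (y axis, from 0) of the 10 glutamate genes in each induced and uninduced library, 1 point per library, with the mean ± SD (n = 4) beside them. Eaat1 and Gs1 separate widely, with induced libraries at 237 to 256 CPM against 447 to 457 CPM for Eaat1, VGlut separates narrowly, and the groups overlap in the other 7 panels.

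Eaat1 (FBgn0026439, chromosome 2L, 9333567 to 9341925 in dm6 coordinates) encodes the high-affinity glutamate transporter of fly glia, which clears glutamate from the extracellular space. It had 237, 248, 256 and 239.9 CPM in induced libraries 1 to 4, against 448, 447, 450.0 and 457 CPM in uninduced libraries 1 to 4. Every induced library lay far below every uninduced library, with a gap between the groups many times the spread within either. The means were 245 ± 8.75 CPM in induced and 450.4 ± 4.53 CPM in uninduced heads (SD, n = 4 each). The log2 fold change was -0.88 with a standard error of 0.04 (edgeR adjusted p = 2.95e-09), and the exact two-sided permutation test gave p = 0.0286, the smallest value 4 against 4 libraries allow. Counts behind these values were 3481 to 4047 per induced and 5681 to 5991 per uninduced library.

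Gs1 (FBgn0001142, chromosome 2L, 132077 to 134472) encodes the mitochondrial glutamine synthetase. Induced libraries 1 to 4 held 171, 170.2, 178 and 178 CPM, and uninduced libraries 1 to 4 held 304, 305, 306 and 323 CPM. The groups were again far apart, and the highest uninduced library was replicate 4. The log2 fold change was -0.83 with a standard error of 0.04 (edgeR adjusted p = 4.41e-09, exact permutation p = 0.0286), on means of 174 ± 4.16 CPM in induced and 309.5 ± 9.06 CPM in uninduced heads (SD, n = 4 each).

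Their paralogs behaved otherwise. Eaat2 (FBgn0026438, chromosome 2L, 737212 to 744395), a transporter of the same family that prefers aspartate and taurine, had 514, 537, 500.1 and 529 CPM in induced libraries, against 503, 487, 487 and 469.5 CPM in uninduced libraries. Only induced replicate 3 fell within the uninduced range, and the log2 fold change of 0.10 (standard error 0.05) did not pass (edgeR adjusted p = 0.116, exact permutation p = 0.0571). Gs2 (FBgn0001145, chromosome X, 11422832 to 11430197), the cytosolic glutamine synthetase, was the most abundant of the 10 genes, with 1037, 1045, 1097 and 1062 CPM in induced and 1136, 1126, 1153 and 1084 CPM in uninduced libraries. Its groups overlapped between induced replicate 3 and uninduced replicate 4, and its log2 fold change was -0.09 (standard error 0.05, edgeR adjusted p = 0.167).

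A ratio of 2 genes within a library does not depend on how libraries are scaled, so the paralogs were also set against each other. Eaat1 over Eaat2 was 0.461, 0.463, 0.513 and 0.453 in induced libraries, against 0.891, 0.916, 0.923 and 0.973 in uninduced libraries. In uninduced heads the transporters thus had nearly equal counts, and in induced heads Eaat2 had the larger count in all 4 libraries by a wide margin. Gs1 over Gs2 was 0.165, 0.163, 0.162 and 0.168 in induced libraries, against 0.267, 0.271, 0.266 and 0.298 in uninduced libraries, again with no overlap. The mean log2 ratio was lower by 0.97 for the transporters and by 0.74 for the synthetases (induced minus uninduced -0.97 and -0.74), each with an exact permutation p of 0.0286. Of the 4 ratios compared, Nmdar1 over Nmdar2 (0.650 ± 0.031 in induced, 0.643 ± 0.060 in uninduced heads) and GluRIA over GluRIB (0.720 ± 0.069 in induced, 0.695 ± 0.051 in uninduced heads) had log2 differences of 0.02 (exact permutation p = 0.83) and 0.05 (exact permutation p = 0.6). Adjusted over the 4 ratios, the exact permutation p of the transporter and of the synthetase ratio was 0.0571. Neither thus passed 0.05 after adjustment, although in both 4 of 4 induced libraries lay below all uninduced libraries. Both had the smallest p possible, 0.0286, and the other ratios did not, which fixed the adjusted value at 0.0571 whatever the gap between groups. These ratios were chosen after the gene values had been seen.

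**Figure D2:**
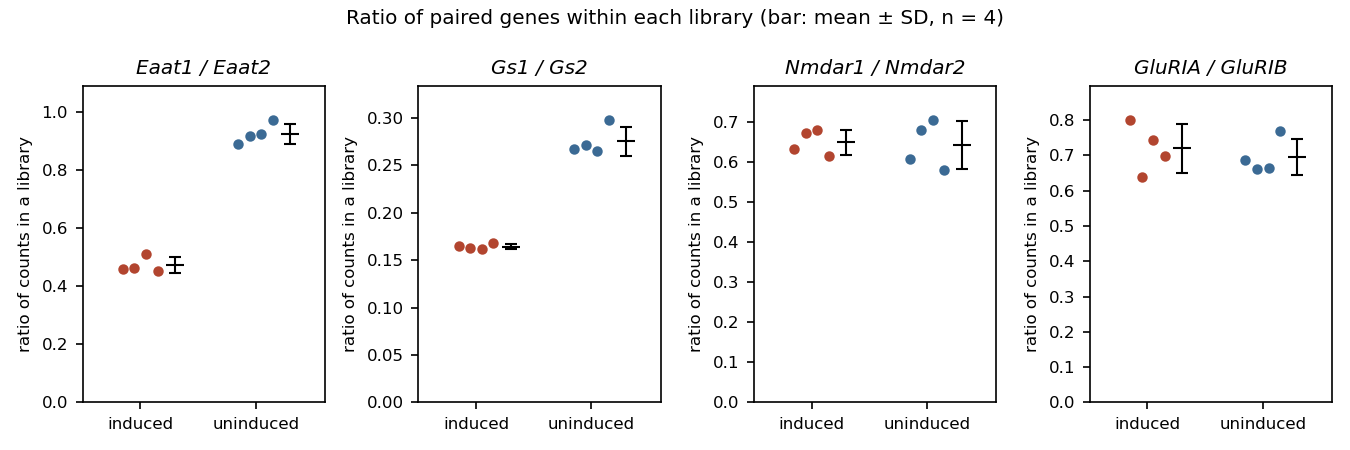
Ratio of the raw counts of 2 related genes within each library (y axis, from 0, no unit), 1 point per library, with the mean ± SD (n = 4). The Eaat1 to Eaat2 ratio lies at 0.453 to 0.513 in induced and 0.891 to 0.973 in uninduced libraries, the Gs1 to Gs2 ratio also separates, and the receptor subunit ratios overlap.

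Set against the summed markers of each cell type in the same libraries, Eaat1 and Gs1 stayed lower in induced heads. Relative to the summed glial markers, the Eaat1 log2 ratio was -0.83 (induced minus uninduced) and that of Gs1 -0.78, with no overlap between groups. Relative to the summed neuronal, photoreceptor and muscle markers the differences were -1.12, -0.90 and -0.88 for Eaat1 and -1.07, -0.86 and -0.83 for Gs1. Most of the difference in the neuronal sum came from cpx, with 1707 ± 60.6 CPM in induced and 1201 ± 76.2 CPM in uninduced heads, and futsch, with 567 ± 30.1 CPM in induced and 346 ± 17.5 CPM in uninduced heads (SD, n = 4 each), while the median log2 fold change of the 10 neuronal markers was 0.05. Fat body markers fell in the same libraries. Relative to their sum the differences were smaller, -0.35 for Eaat1 and -0.30 for Gs1, still without overlap. That sum was mostly Yp1 (log2 fold change -0.435), Yp2 (-0.35) and Yp3 (-0.69), which like apolpp (-0.49) fell less than Eaat1 and Gs1. The other tested fat body markers, fit (-1.23), Lsp1beta (-2.97) and Lsp2 (-4.47), fell more than both. The direction for Eaat1 and Gs1 thus depends on which fat body markers are taken. Relative to the fat body sum, the ratios of the remaining 8 genes were all higher in induced heads, with no overlap between groups. That sum was itself lower in induced heads (log2 ratio -0.52), so an unchanged gene would also rise against it. Even VGlut, lower by CPM, was higher by this ratio (0.33). The share of all genes tested that rose against the sum was not computed, so these rises were not read as a property of the 8 genes. The part of fat body RNA in the fall of Eaat1 and Gs1 was not tested beyond these ratios. The 8 glial markers did not move together. The largest parts of their sum moved in opposite directions. They were nrv2, with 270 ± 11.2 CPM in induced and 242 ± 5.79 CPM in uninduced heads, and ltl, with 149 ± 15.4 CPM in induced and 182 ± 10.9 CPM in uninduced heads (SD, n = 4 each). In edgeR's test alrm (log2 fold change 0.19, adjusted p = 0.0445, groups overlapping), nrv2 (0.16, adjusted p = 0.0131) and wrapper (0.23, adjusted p = 0.00515) were higher, moody (-0.43, adjusted p = 1.83e-04), Mdr65 (-0.43, adjusted p = 6.78e-05) and ltl (-0.29, adjusted p = 0.00386) were lower, and repo (0.13, adjusted p = 0.258) and Gat (0.04, adjusted p = 0.791) did not pass.

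VGlut (FBgn0031424, chromosome 2L, 2400295 to 2410662), which loads glutamate into synaptic vesicles and marks glutamatergic neurons, had 70.1, 79.4, 70.7 and 74.6 CPM in induced libraries and 85.6, 83.1, 83.5 and 85.9 CPM in uninduced libraries. All induced libraries were lower, replicate 2 being the nearest to the uninduced range. The log2 fold change was -0.20 with a standard error of 0.05 (edgeR adjusted p = 0.00493, exact permutation p = 0.0286). This call depended on scaling, since with libraries scaled to their totals only the log2 fold change was -0.02 (edgeR adjusted p = 0.787), while that scaling also moved the median of all tested genes to 0.18, from which VGlut lay at -0.20. Relative to the summed neuronal markers, a sum raised in induced heads mostly by cpx and futsch, VGlut was lower without overlap (-0.44), and relative to the summed glial markers the groups overlapped (-0.15). VGlut shares 39 exon bases of 5716 with CG18641 on the opposite strand.

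The glial gene gb (genderblind, FBgn0039487, chromosome 3R, 27108467 to 27112270) encodes a light chain of the cystine/glutamate exchanger, through which glia release glutamate outside synapses. It had 30.7, 30.7, 30.8 and 28.0 CPM in induced libraries and 26.7, 27.5, 30.3 and 27.8 CPM in uninduced libraries. Of the induced libraries 3 were above all uninduced ones and replicate 4 lay among them, so that the groups overlapped, with a log2 fold change of 0.10 (standard error 0.06, edgeR adjusted p = 0.226). Since 865 of its 2635 exon bases are shared with an antisense RNA, asRNA:CR45209, and the strand setting of the counting is not given in the sources used here, reads of the antisense RNA cannot be told apart from those of gb there. The antisense RNA itself had 254 to 282 raw counts per induced and 202 to 221 per uninduced library. After TMM scaling its log2 fold change was 0.12 (standard error 0.07) and did not pass (edgeR adjusted p = 0.186).

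The receptor subunits were the least abundant of the 10 genes per length and none passed the test. Nmdar1 (FBgn0010399, chromosome 3R, 5508842 to 5523328) is the obligate subunit of the NMDA receptor, a coincidence detector used in olfactory memory, and Nmdar2 (FBgn0053513, chromosome X, 1483625 to 1507809) is its partner. Nmdar1 had 34.1, 34.8, 34.1 and 33.7 CPM in induced and 31.9, 33.5, 36.4 and 26.8 CPM in uninduced libraries, so that the induced libraries were closely grouped and lay inside the uninduced range. Nmdar2 had 54.0, 51.7, 50.1 and 54.7 CPM in induced and 52.6, 49.2, 51.6 and 46.4 CPM in uninduced libraries. The log2 fold changes were 0.09 (standard error 0.08, edgeR adjusted p = 0.404) for Nmdar1 and 0.08 (standard error 0.05, edgeR adjusted p = 0.286) for Nmdar2. Uninduced replicate 4 had the lowest value of both subunits, and without it the log2 fold change of Nmdar1 was 0.02.

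GluRIA (FBgn0004619, chromosome 3L, 6624032 to 6635059) and GluRIB (FBgn0264000, chromosome 3L, 9251978 to 9288522) are subunits of cation channels related to the mammalian AMPA receptors. GluRIA had 33.9, 28.5, 32.9 and 29.6 CPM in induced and 27.8, 29.2, 27.7 and 29.8 CPM in uninduced libraries, with induced replicates 2 and 4 inside the uninduced range. GluRIB had 42.3, 44.7, 44.3 and 42.5 CPM in induced and 40.5, 44.1, 41.7 and 38.7 CPM in uninduced libraries, also overlapping. The log2 fold changes were 0.12 (standard error 0.07, edgeR adjusted p = 0.159) for GluRIA, the highest of the 10 genes, and 0.07 (standard error 0.05, edgeR adjusted p = 0.309) for GluRIB. A p above the threshold does not show that these levels were equal. Under scaling to library totals only, 6 of the 10 genes were higher, all 4 receptor subunits with Eaat2 and gb. Their log2 fold changes were 0.25 to 0.30, beside a median of 0.18 over all genes. Under that scaling 4488 of the 9905 genes tested were higher.

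**Figure D3:**
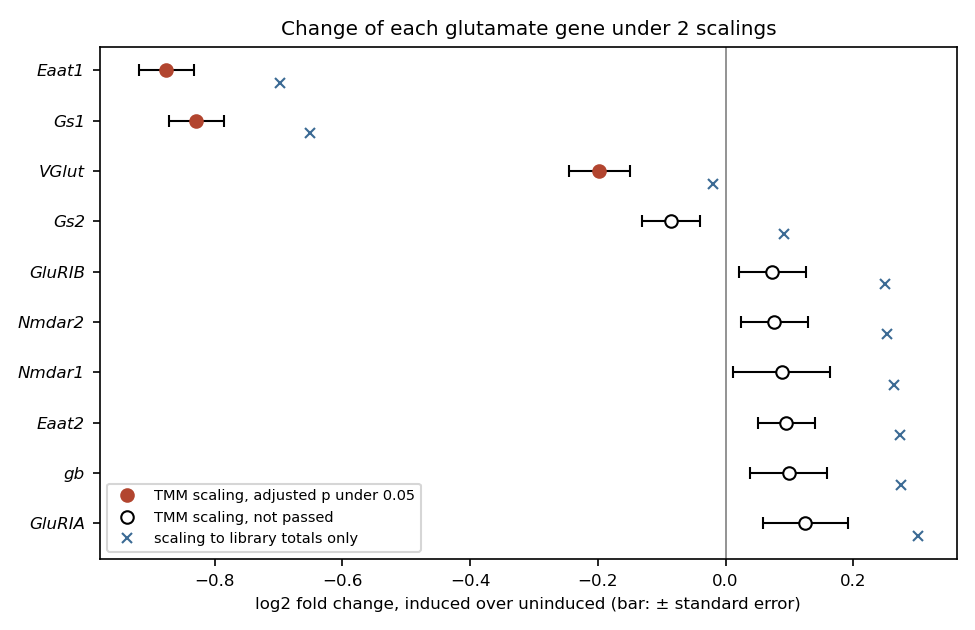
Log2 fold change, induced over uninduced, of the 10 genes (x axis, circles with ± standard error, filled where the edgeR adjusted p was under 0.05), with the value under scaling to library totals only as a cross. Eaat1 (-0.88) and Gs1 (-0.83) lie far left of the other genes under both scalings, while VGlut moves from -0.20 to -0.02 and Gs2 from -0.09 to 0.09.

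Per length, the order of the genes also changed at the top. Levels per kilobase of exon in induced heads were 475 CPM per kb for Gs2, 130.2 for Eaat2, 78.2 for Eaat1, 72.8 for Gs1, 12.9 for VGlut and 11.4 for gb, followed by 8.19 for GluRIA and Nmdar1, 6.55 for Nmdar2 and 6.04 for GluRIB. In uninduced heads they were 504 CPM per kb for Gs2, 143.5 for Eaat1, 129 for Gs1, 122 for Eaat2, 14.8 for VGlut and 10.7 for gb, then 7.71 for Nmdar1, 7.51 for GluRIA, 6.21 for Nmdar2 and 5.75 for GluRIB. Eaat2 was thus below Eaat1 and Gs1 in every uninduced library and above both in every induced library. Among neighbours in this order, the ranges over libraries overlapped only for GluRIA and Nmdar1 in induced heads, and for Nmdar1 and GluRIA and for Nmdar2 and GluRIB in uninduced heads. Exon lengths are those of the union of all annotated exons, which need not be the transcripts used in the head.

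Eaat1 had the lowest adjusted p of the 10 genes, and the genes whose log2 CPM over the 8 libraries was most like it were CG17841 (Pearson r = 0.997), Gs1 (0.996) and CG14274 (0.995), out of 9904 genes compared. Gs1, another of the 10 genes, was thus second of all genes by this measure. All 8 points share the split between the groups, and 381 genes had r above 0.95. CG17841 had 375 ± 7.18 CPM in induced and 600.2 ± 7.13 CPM in uninduced heads (log2 fold change -0.68), and CG14274, now named witty, had 5.88 ± 0.932 CPM in induced and 35.8 ± 2.25 CPM in uninduced heads (log2 fold change -2.60).

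Other genes were taken from 5 lists with 46 members. The lists held other glutamate receptor genes, glutamate and glutamine enzymes, and SLC7 relatives of gb with their heavy chain. They also held vesicular transporters of other transmitters, and genes of the postsynaptic scaffold and of NMDA receptor signalling. Of the 46, 45 were tested, 13 were higher and 13 lower, beside 17.7% higher and 18.8% lower over all genes tested (median log2 fold change 0.04, against 0.00 over all genes). Among 14 other glutamate receptor genes, GluRIIB had 0 to 7 counts per library and was not tested, 3 were higher and 2 lower. mtt (mangetout, of the metabotropic glutamate receptor family) had 25.0, 26.4, 24.6 and 27.3 CPM in induced and 19.7, 19.8, 18.0 and 15.9 CPM in uninduced libraries, with no overlap, a log2 fold change of 0.49 (standard error 0.08, edgeR adjusted p = 1.66e-04). GluClalpha, the glutamate-gated chloride channel that makes glutamate inhibitory, had 220.1, 219, 209 and 228 CPM in induced and 175, 187, 186 and 172 CPM in uninduced libraries (log2 fold change 0.28, standard error 0.05, edgeR adjusted p = 2.84e-04). mtt and GluClalpha kept their direction and their call in all 15 alternatives. The kainate-type genes Ekar (0.25, adjusted p = 0.0119) and KaiR1D (-0.22, adjusted p = 0.00912), chosen after their values were seen, moved in opposite directions. GluRIID, a subunit of the muscle receptor, was lower (-0.26, adjusted p = 0.0309), a call lost in 8 of 15 alternatives, and it shares 122 exon bases with GluRIIE.

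Among 13 enzymes that make or use glutamate and glutamine, 6 were lower and 3 higher (median log2 fold change -0.12), beside 18.8% lower and 17.7% higher over all genes. AsnS, which makes asparagine with glutamine as the nitrogen donor, had 155, 136, 124 and 125 CPM in induced and 218, 209.8, 191 and 208 CPM in uninduced libraries (log2 fold change -0.62, standard error 0.07, edgeR adjusted p = 8e-06). All induced libraries were lower, as they were for P5cr, the last enzyme of proline synthesis from glutamate (-0.38, adjusted p = 0.00214, 151 of 1168 exon bases shared with Prp18), and CG1640, an alanine aminotransferase (-0.32, adjusted p = 2.47e-05). Gad1, which turns glutamate into GABA (-0.20, adjusted p = 0.00689), and GABAT, which breaks GABA down (-0.27, adjusted p = 2.6e-04), were lower, and both were chosen after their values were seen.

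Of 6 genes, relatives of gb in the SLC7 transporter family and their heavy chain CD98hc, 3 were higher and 2 lower. Over all genes tested, 17.7% were higher and 18.8% lower. The amino acid transporters slif (-0.44, edgeR adjusted p = 0.00105) and JhI-21 were lower. Higher were sbm (0.23, adjusted p = 0.00122), mnd (0.21, adjusted p = 0.0124) and CG1607, and CD98hc did not pass (-0.06, adjusted p = 0.291). Of the vesicular transporters of other transmitters, 3 of 4 were lower, beside 18.8% of all genes, a list too short to read a share from. prt (portabella) was at 5.83 ± 0.878 CPM in induced and 12.0 ± 0.572 CPM in uninduced heads (log2 fold change -1.04, standard error 0.10, edgeR adjusted p = 3.47e-06). Vmat, the monoamine transporter, was lower (-0.31, adjusted p = 2.19e-04, lost under scaling to library totals only), and shares 2129 of 8134 exon bases with CG13330. VAChT, the acetylcholine transporter, was lower (-0.14, adjusted p = 0.0243, lost in 5 of 15 alternatives, 606 exon bases shared with ChAT), and VGAT did not pass (0.10, adjusted p = 0.178).

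Of 9 genes of the postsynaptic scaffold and of NMDA receptor signalling, 4 were higher in edgeR's test and 0 lower, beside 17.7% higher and 18.8% lower over all genes. The log2 fold changes ran from 0.02 to 0.83. CASK, a membrane-associated scaffold kinase, had 183, 187, 180.3 and 175 CPM in induced and 103, 107, 104 and 93.6 CPM in uninduced libraries, with no overlap (log2 fold change 0.83, standard error 0.05, edgeR adjusted p = 1.5e-08). Of its 9545 exon bases, 2669 are shared with the noncoding RNA CRG on the same strand, for which the table lists 0 counts in every library. The neuroligins Nlg2 (0.30, adjusted p = 6.37e-04) and Nlg1 (0.39, adjusted p = 0.0263, lost in 4 of 15 alternatives) were also higher, as was metro. The values of dlg1 (0.09, adjusted p = 0.116), homer (0.08, adjusted p = 0.21) and CaMKII (0.04, adjusted p = 0.515) did not pass.

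**Figure D4:**
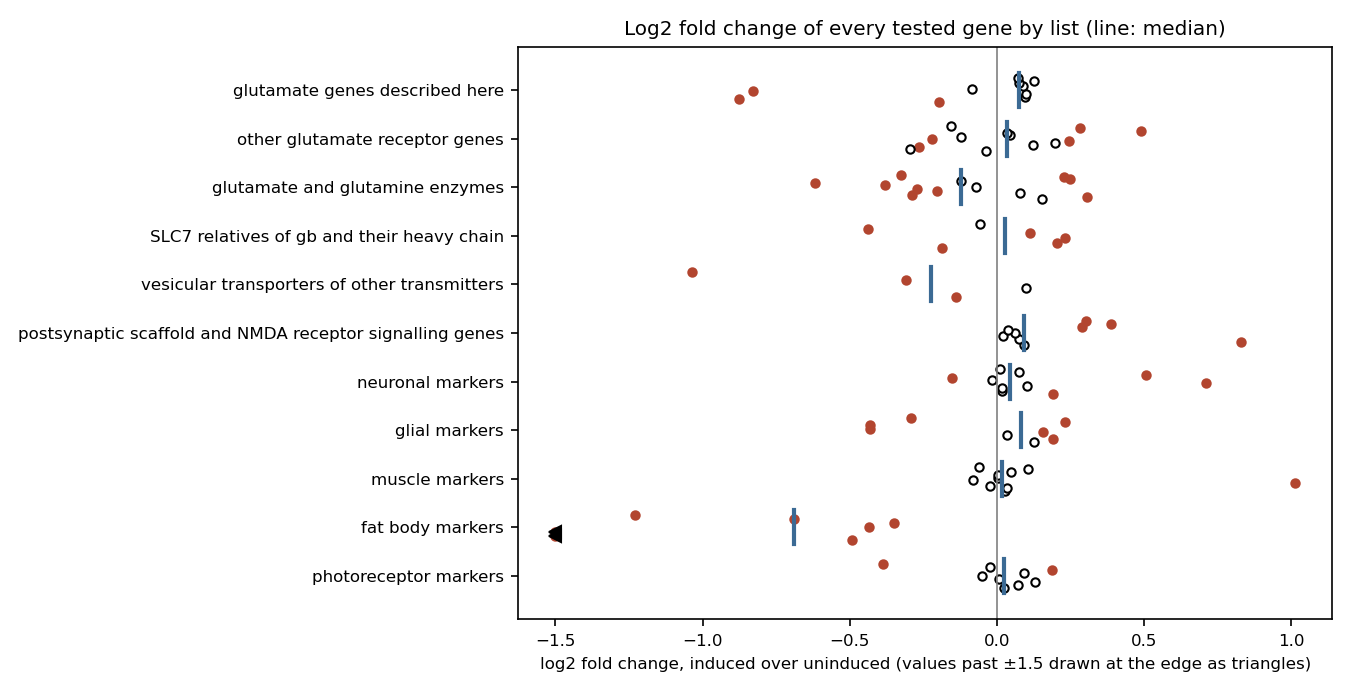
Log2 fold change, induced over uninduced (x axis), of every tested gene in the 10 glutamate genes, the 5 surrounding lists and the 5 marker lists, filled where the edgeR adjusted p was under 0.05, with a line at the median of each list. Outside the marker lists, Eaat1 (-0.88) and Gs1 (-0.83) are the farthest left apart from prt (-1.04), and CASK (0.83) is the farthest right. The 7 fat body markers all lie below 0, 2 of them (Lsp2 and Lsp1beta) past the left edge as triangles.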

How the data were processed

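RNA from 8 libraries of fly heads was sequenced as 100-bp pairs, and reads were aligned by the authors to Dm6. The deposited table holds raw counts per gene and library, not normalized and not pooled. For the aligner, counter, annotation and strand setting, nothing was given in the sources used here. Another 8 columns of normalized values per library and the authors' DESeq2 columns (means, fold changes, p-values, dispersions) were not used. The test was that of edgeR 4.0.16 under R 4.3.3 (filterByExpr, TMM, quasi-likelihood test, Benjamini-Hochberg adjustment over 9905 of 16727 genes, threshold 0.05), and the steps were tested on simulated data. The comparison had 1 factor with 4 libraries per group. Standard errors are the absolute log2 fold change over the square root of F. The exact permutation tests were two-sided, ran on log2(CPM + 0.1) and could not go below p = 0.0286. Precision depends on library totals, which were 13247282 to 14962813 counts, and on the spread between libraries. In replicate pairs, the chi-square per gene was 2.74 to 12.4, so no library repeated another. Uninduced replicate 4 lay apart from the other uninduced libraries, at 8.87 to 12.4 against 3.77 to 3.94 among those. Induced replicates 1 and 3 (4.68) and 2 and 4 (2.74) were closer than the other induced pairs (5.95 to 8.90).

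The 10 genes and the 10 lists (91 genes, 82 matched by symbol and 9 by an older name or CG number through RefSeq) were chosen with earlier results of these data known. Named by rule besides the 10 genes were up to 3 genes per surrounding list with an adjusted p under 0.05 and the largest absolute log2 fold change. The same rule named the 3 genes most correlated with the gene of lowest adjusted p. Other genes of the surrounding lists, and single markers apart from elav and repo, were named outside this rule with their values known. Coordinates and exon lengths are from Ensembl's BDGP6 annotation in dm6 coordinates. Alternatives were DESeq2 1.42.0, RLE, upper quartile and totals-only scaling, no filter, a minimum of 10 counts per library, a replicate block and each library left out in turn.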

Additional observations from a re-analysis of the deposited data

Results flagged for a closer look

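Libraries far from the other 3 of their group were looked for in 54 groups of 4 values, of which 2.7 would be expected by chance, and 4 were found. Induced replicate 4 had the lowest gb value, 28.0 CPM, against 30.7 to 30.8 CPM in the other induced libraries, and it is the library that made the groups of gb overlap. Uninduced replicate 4 had the highest Gs1 value, 323 CPM, against 304 to 306 CPM in the other uninduced libraries, and the log2 fold change of Gs1 without each library in turn stayed between -0.84 and -0.80. Induced replicate 4 had the lowest value of CG1640, 281.6 CPM. Uninduced replicate 2 had the lowest uninduced value of CG17841, 589.6 CPM, still above every induced library.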

How the results depend on the processing

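Of the 15 alternatives, 14 kept all 6 counts within 1.5 times their main values, and scaling to library totals only did not. Under it 6 in place of 0 of the 10 glutamate genes were higher and 2 in place of 3 were lower. Of the surrounding genes 23 were higher and 5 lower. Of the 9905 genes tested, 4488 were higher and 874 lower. Among the genes called in either direction, 83.7% were thus higher in place of 48.4%. That scaling moved the median log2 fold change of all genes to 0.18, and it turned Gs2 to 0.091 and VAChT to 0.040. Relative to that median, Eaat1 lay at -0.88 and Gs1 at -0.83. With each library left out in turn, 0 glutamate genes were higher and 3 lower in all 8 fits, 11 to 14 surrounding genes were higher and 11 to 14 lower, and 1527 to 1763 of all genes were higher and 1598 to 1764 lower. Eaat1 ranged from -0.90 to -0.70 and Gs1 from -0.84 to -0.65 over all 15 alternatives, with highest adjusted p-values of 8.64e-08 and 9.97e-08, and VGlut ranged from -0.24 to -0.02.
The replicate block gave 0 higher and 3 lower glutamate genes, and 1671 higher and 1788 lower of all genes. Libraries with the same number did not deviate together (correlations -0.065 to 0.025), so the numbers were not taken as pairs.
Counts per library were 345 to 857 for the receptor subunits (standard errors 0.05 to 0.08), 357 to 486 for gb (0.06) and 13934 to 17311 for Gs2 (0.05).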
